A study of Mus musculus with 9 samples.

Results

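The subject here is the response of MyD88 knockout macrophages to 4 h of lipopolysaccharide (LPS), given by 2 of the 9 arrays of the study: the MyD88 KO array at 4 h and the unstimulated MyD88 KO array. Every gene with a signal was a member. Where several probe sets carried a symbol, the one of highest average signal across all 9 arrays stood for the gene, and 10032 of 12394 named genes reached a log2 value of 6 on at least 1 array and were kept. The study hybridised total RNA of thioglycollate-elicited peritoneal macrophages, the cells that enter the mouse peritoneum after an irritant injection, to Affymetrix arrays with 22690 probe sets each. The genotypes were MyD88-/- (MyD88 KO), TRIF-/- (TRIF KO) and wild type, each left unstimulated or given 100 ng/ml LPS for 1 h or 4 h, with 1 array for each. The labels name each strain by its knockout alone and state neither background strain, age and sex nor how many mice an array stands for. All 9 groups share the thioglycollate injection.

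LPS is sensed at the cell surface by TLR4 with CD14 and MD-2. The adaptor MyD88 carries the signal from the surface to NF-kB and to the MAP kinases, and the adaptor TRIF carries it from endosomes to the kinase TBK1 and the transcription factor IRF3, which switches on interferon beta, and also to a slower NF-kB signal. Interferon beta leaves the cell and acts back through its receptor on genes with an interferon-stimulated response element (ISRE), so that a macrophage without MyD88 is the usual system in which the TRIF branch of the LPS response is studied.

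Macrophage markers had a mean level of 11.67, 11.70 and 11.58 (log2) in MyD88 KO at 0, 1 and 4 h. Marker lists of 9 other cell types, from neutrophils to fibroblasts, had no member at least 2-fold higher or lower in MyD88 KO at 4 h, and their median differences lay between -0.21 and 0.04. Fibroblast markers stood at 7.18, 7.25 and 7.15 in MyD88 KO, at 7.03, 7.04 and 7.21 in TRIF KO and at 6.63, 6.67 and 6.66 in wild type, so they differed by genotype and hardly by time. The Myd88 probe set read 9.30, 9.19 and 9.34 in MyD88 KO, 9.56, 9.54 and 9.96 in TRIF KO, against 9.57, 9.58 and 10.002 in wild type. No source used here places that probe set inside or outside the deletion, so it checks nothing about the label, and Ticam1, which encodes TRIF, is not analysed here.

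The upstream sequences of 7 genes named below are shown: 5 hold an ISRE core, and Nfkbie and Acod1 hold none. Gbp2, with a core, was at least 2-fold higher in all 3 genotypes, as were Nfkbie and Acod1. Oasl1, Ifit2, Cmpk2 and Peli1, which had a smaller response in TRIF KO but no core in the upstream window, are not shown. Each is the 230 bases before an annotated start, 5′ to 3′, from RefSeq on GRCm38.p6. Capitals mark every match, on either strand, to 1 of 3 motifs. The ISRE core was GAAA repeated after a gap of 2 bases. The NF-kB motif was 3 G followed by A or G, a gap of 4 bases and 2 C, and the AP-1 motif was TGAGTCA. Overlapping matches run together. Ifit1 lies at chr19:34640659-34640888, plus strand, Rsad2 at chr12:26456453-26456682, minus strand, Cxcl10 at chr5:92348890-92349119, minus strand, Gbp2b at chr3:142594617-142594846, plus strand, Gbp2 at chr3:142620433-142620662, plus strand, Nfkbie at chr17:45555470-45555699, plus strand, and Acod1 at chr14:103046782-103047011, plus strand.
Ifit1: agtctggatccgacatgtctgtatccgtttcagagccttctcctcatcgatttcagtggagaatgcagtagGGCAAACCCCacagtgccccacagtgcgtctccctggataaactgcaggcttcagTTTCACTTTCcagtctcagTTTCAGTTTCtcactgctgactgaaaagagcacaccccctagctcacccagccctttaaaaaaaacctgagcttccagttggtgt
Rsad2: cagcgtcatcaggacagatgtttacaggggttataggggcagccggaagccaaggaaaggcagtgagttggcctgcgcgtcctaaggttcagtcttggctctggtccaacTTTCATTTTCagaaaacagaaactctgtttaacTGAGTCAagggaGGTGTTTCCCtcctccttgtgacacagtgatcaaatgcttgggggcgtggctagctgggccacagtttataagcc
Cxcl10: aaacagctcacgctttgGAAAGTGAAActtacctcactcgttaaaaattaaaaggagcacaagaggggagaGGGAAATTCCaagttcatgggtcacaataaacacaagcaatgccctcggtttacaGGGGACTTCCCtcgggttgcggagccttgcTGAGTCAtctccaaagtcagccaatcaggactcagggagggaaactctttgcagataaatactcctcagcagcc
Gbp2b: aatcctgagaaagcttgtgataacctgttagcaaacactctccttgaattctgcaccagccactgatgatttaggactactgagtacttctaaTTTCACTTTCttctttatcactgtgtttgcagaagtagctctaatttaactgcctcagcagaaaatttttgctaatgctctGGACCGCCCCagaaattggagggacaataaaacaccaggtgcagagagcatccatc
Gbp2: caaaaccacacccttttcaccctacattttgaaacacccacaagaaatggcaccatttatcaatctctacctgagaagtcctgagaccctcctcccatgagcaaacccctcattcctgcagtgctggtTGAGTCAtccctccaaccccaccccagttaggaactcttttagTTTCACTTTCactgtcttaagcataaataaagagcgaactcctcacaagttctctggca
Nfkbie: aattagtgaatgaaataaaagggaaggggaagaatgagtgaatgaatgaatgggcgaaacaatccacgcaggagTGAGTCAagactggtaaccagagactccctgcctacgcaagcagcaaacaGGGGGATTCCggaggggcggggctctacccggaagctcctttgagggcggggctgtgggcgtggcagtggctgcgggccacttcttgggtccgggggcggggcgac
Acod1: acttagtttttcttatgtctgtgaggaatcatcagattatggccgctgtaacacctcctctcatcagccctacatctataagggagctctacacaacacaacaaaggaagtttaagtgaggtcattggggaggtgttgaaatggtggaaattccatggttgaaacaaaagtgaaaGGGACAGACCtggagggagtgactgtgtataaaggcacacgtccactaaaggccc
Ifit1 held 2 ISRE cores, which began 104 and 85 bases before the start. The single core of Rsad2 began 120 bases before it, that of Gbp2b 137, that of Gbp2 59 and that of Cxcl10 213. Nfkbie had an AP-1 match and an NF-kB match, at 156 and 106 bases, and Acod1 had an NF-kB match at 55 bases.

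At 4 h of LPS, 43 genes were at least 2-fold higher in MyD88 KO than in the unstimulated MyD88 KO array, which is 0.429% of the genes kept, and 1 gene was at least 2-fold lower, 0.00997%. Of the 43, 11 were at least 4-fold higher (0.11%). With 1 array a side these differences have no replicate check and no p-value. In TRIF KO 41 genes were at least 2-fold higher (0.409%) and 5 at least 2-fold lower (0.0498%), and in wild type 123 were higher (1.23%) and 46 lower (0.459%). Between the unstimulated MyD88 KO and wild-type arrays, with no LPS on either side, 8 genes were at least 2-fold higher in MyD88 KO (0.0797%) and 17 lower (0.169%). The 99th percentile of the absolute log2 difference over all genes was 0.71 for MyD88 KO at 4 h and 0.66 for that unstimulated pair. Over all genes the median difference at 4 h was -0.04 in MyD88 KO, where 37.5% of genes were above 0 and 62.5% below.

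To give the 4 h value an error, limma was fitted to all 9 arrays with the 0 h and 1 h arrays of a genotype as its 2 baseline arrays. The late response is then the 4 h value minus their mean, and the lone 4 h array is assumed to vary like the baseline arrays. The labels do not say that arrays came from separate mice, so the p-values rest on array-to-array spread alone, and that spread may be technical. It is taken between the 0 h and 1 h arrays of each genotype, so it also holds any response at 1 h. A gene that had moved by 1 h gets a larger error, and a gene that did not pass is not shown to lack a response. By this test 137 genes rose late in MyD88 KO (1.37% of 10032) and 46 fell (0.459%) at a Benjamini-Hochberg adjusted p under 0.05, and 815 had an unadjusted p under 0.05. The genes that rose did so by a median of 0.75 on the log2 scale, between 0.45 and 3.78, and 40 of the 43 were among them. Cxcl2, Pde4b and Ccrl2 were not, with late differences of 0.45, 0.82 and 0.63. For Cxcl2 the SE was 1.23, beside a 1 h difference of 2.94 in MyD88 KO. Leaving out the unstimulated MyD88 KO array reduced the counts to 75 higher and 11 lower, and leaving out its 1 h array to 100 higher and 10 lower. A fit of the 4 h effect averaged over the genotypes called 463 higher and 715 lower, and raising values under log2 6 to 6 left 27 higher and 4 lower. Among the late rises that this floor ended were those of Acod1, Clec4e, Marcksl1, Gpr84, Tlr2, Icam1, Nfkbie and Cxcl10. Of these, Acod1, Clec4e, Marcksl1, Gpr84, Tlr2 and Cxcl10 had no value under log2 6, so the floor left their values unchanged. Because limma shares its estimate of the spread across genes, here and below the floor can end a call without changing that gene's values.

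**Figure D1:**
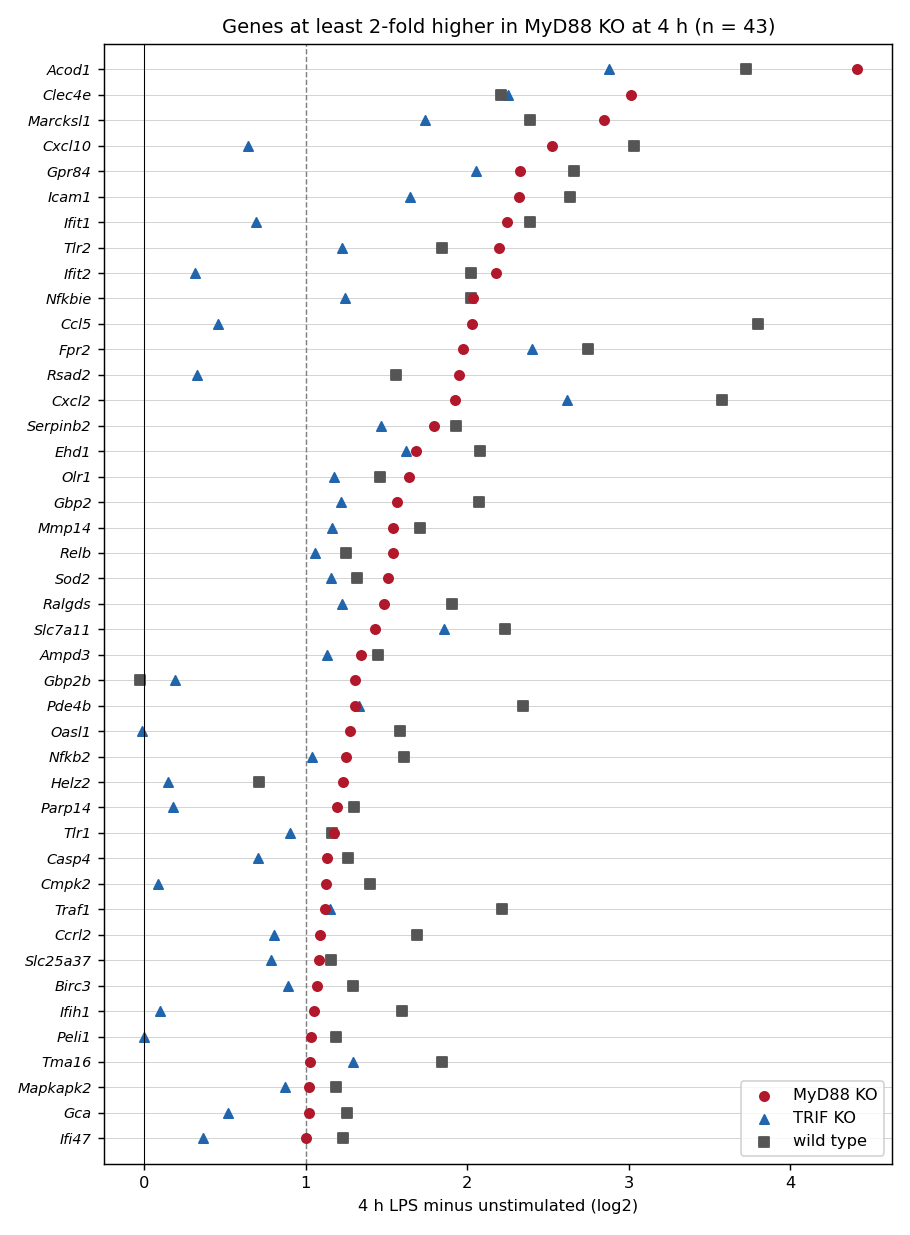
The 43 genes at least 2-fold higher in MyD88 KO at 4 h, ordered by that difference, with the log2 difference between the 4 h and the unstimulated array on the x axis for MyD88 KO (circles), TRIF KO (triangles) and wild type (squares); each point is a pair of arrays and the dashed line is 2-fold. For 38 genes the square lies within 1 log2 unit of the circle, and for Cxcl10, Ifit1, Ifit2, Ccl5, Rsad2, Gbp2b, Oasl1, Helz2, Parp14, Cmpk2, Ifih1 and Peli1 the triangles lie left of 2-fold and well left of the circles.

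The gene with the largest difference was Acod1, which makes the antimicrobial metabolite itaconate. It read 7.79, 9.05 and 12.21 in MyD88 KO at 0, 1 and 4 h, 8.81, 9.5 and 11.69 in TRIF KO, and 9.31, 10.64 and 13.04 in wild type. The MyD88 KO level started lowest of the 3 genotypes and by 4 h lay between TRIF KO and wild type. Its 4 h difference was 4.41 on the log2 scale in MyD88 KO, a 21.3-fold higher level, 2.88 in TRIF KO, against 3.73 in wild type. The late rise was 3.78 ± 0.48 (SE; limma, adjusted p = 0.000507), and its difference from TRIF KO of 1.25 had an adjusted p of 1.0.

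Clec4e encodes Mincle, a lectin receptor for the mycobacterial cord factor. It read 9.05, 9.72 and 12.07 in MyD88 KO, 10.47, 10.85 and 12.73 in TRIF KO, against 10.86, 11.22 and 13.07 in wild type. It was lowest in MyD88 KO at every time, with the gap to wild type narrower at 4 h than at 0 h, and the 8.09-fold difference at 4 h was a late rise of 2.69 ± 0.23 (SE; limma, adjusted p = 1.7e-05). Marcksl1, an actin-binding substrate of protein kinase C, read 9.29, 10.17 and 12.14 in MyD88 KO, 10.66, 11.15 and 12.40 in TRIF KO, against 9.85, 10.55 and 12.24 in wild type. The 3 genotypes began further apart than they ended.

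Several of the 43 genes encode cell surface receptors. Gpr84, which binds medium-chain fatty acids, read 7.22, 7.60 and 9.55 in MyD88 KO and 8.26, 8.46 and 10.31 in TRIF KO, against 8.42, 8.85 and 11.09 in wild type, a difference at 4 h of 2.33, 2.05 and 2.67. Tlr2, which recognises bacterial lipoproteins, read 8.11, 8.65 and 10.30 in MyD88 KO and 9.61, 9.80 and 10.84 in TRIF KO, against 9.31, 9.77 and 11.16 in wild type. Its partner Tlr1 differed by 1.17 in MyD88 KO. Fpr2, a formyl peptide receptor, read 6.84, 6.86 and 8.81 in MyD88 KO, 8.80, 8.65 and 11.20 in TRIF KO, against 8.48, 8.53 and 11.22 in wild type. The 1 h difference of Fpr2 was 0.03 in MyD88 KO, -0.15 in TRIF KO, against 0.05 in wild type, and its level in MyD88 KO after 4 h was near that of the other unstimulated macrophages. Icam1, the integrin ligand that holds leukocytes to endothelium, and Olr1, a receptor for oxidised LDL, differed by 2.32 and 1.64. The late rises of Gpr84, Tlr2, Tlr1, Fpr2, Icam1 and Olr1 all passed limma's test, with adjusted p between 5.51e-07 for Fpr2 and 0.00695 for Olr1, which did not pass without the unstimulated MyD88 KO array.

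Among 25 kept genes of a list of macrophage effector enzymes and receptors, 11 were at least 2-fold higher in MyD88 KO, 13 in TRIF KO, against 14 in wild type. The shares of all genes were 0.429%, 0.409% and 1.23%. The median difference of the list was 0.68, 1.13 and 1.45. In MyD88 KO 13 rose late and none fell, beside 1.37% and 0.459% of all genes. Beside Acod1, Clec4e, Marcksl1, Gpr84, Fpr2 and Olr1, the higher members were Serpinb2, an inhibitor of plasminogen activators (1.80), Ehd1, which recycles endosomes (1.68), Mmp14, a membrane-bound matrix protease (1.54), Sod2, the mitochondrial superoxide dismutase (1.51), and Ampd3, an AMP deaminase (1.34). Ptgs2, the inducible cyclooxygenase, differed by 0.09 in MyD88 KO, by 1.27 in TRIF KO and by 2.93 in wild type. Ptges, which makes prostaglandin E2, and Slc7a2, an arginine transporter, rose late in MyD88 KO, with 0.52 and 0.86 at 4 h against 2.03 and 2.10 in wild type. The late responses differed from wild type by -1.28 and -1.13 (limma, adjusted p = 0.00708 and 0.00669), calls that ended without the unstimulated MyD88 KO array, and the late rise of Ptges did not pass without the 1 h array.

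Members of the NF-kB family made up a smaller group. All 13 kept genes of that list were above 0 at 4 h in MyD88 KO, beside 37.5% of all genes, with a median of 0.69 beside 0.89 in TRIF KO, against 1.25 in wild type, and 5 were at least 2-fold higher in each knockout (0.429% of all genes in MyD88 KO, 0.409% in TRIF KO), against 8 in wild type (1.23%). Nfkbie, the inhibitor IkB epsilon, read 5.99, 6.47 and 8.03 in MyD88 KO, 7.27, 7.70 and 8.51 in TRIF KO, against 7.06, 7.54 and 9.08 in wild type. It stayed about 1 log2 unit below wild type throughout in MyD88 KO, and its late rise was 1.80 ± 0.22 (SE; limma, adjusted p = 0.000392). Relb and Nfkb2, the subunits of the non-canonical NF-kB dimer, differed by 1.54 and 1.25, and Traf1 and Birc3, which act at TNF receptors, by 1.12 and 1.07. With Tnip1, whose call ended without either MyD88 KO baseline array, these were the 6 that rose late, beside 1.37% of all genes. Nfkbiz, a co-activator of secondary response genes, and Rel differed by 0.63 and 0.07 in MyD88 KO, by 2.05 and 0.33 in TRIF KO and by 2.60 and 0.98 in wild type.

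**Figure D2:**
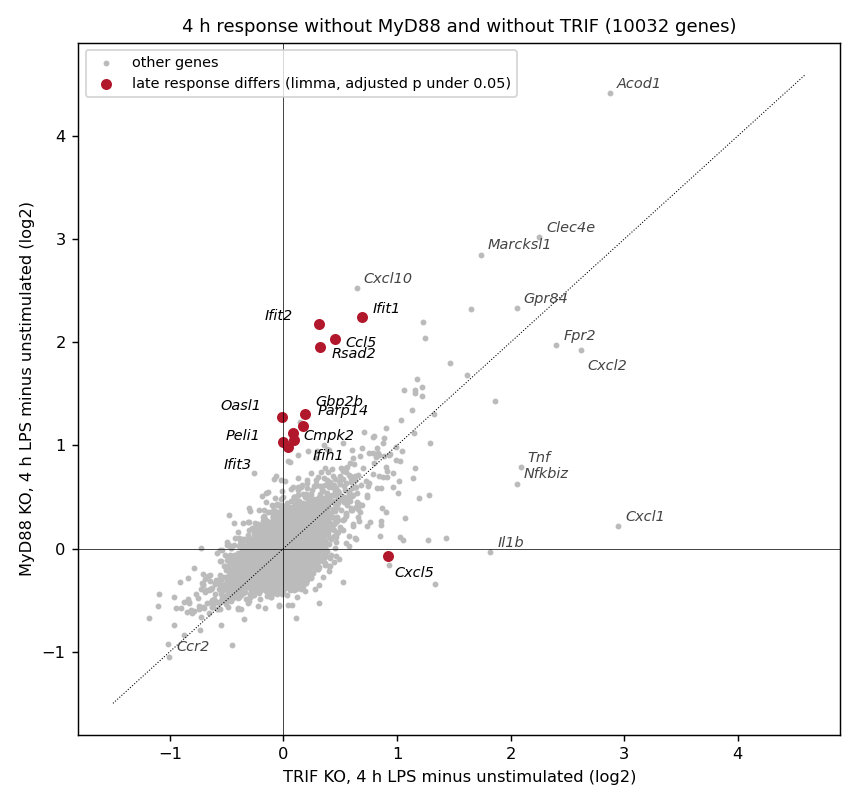
Log2 difference between the 4 h and the unstimulated array for the 10032 genes, in TRIF KO on the x axis and in MyD88 KO on the y axis; the dotted line marks equal values and red points are the 12 genes whose late response differed between the genotypes by limma. The red genes above the line, among them Ifit1, Ifit2, Rsad2, Ccl5 and Oasl1, lie left of 1 on the x axis. Cxcl1, Tnf, Nfkbiz and Il1b lie below the line. No test is read for Gbp2b and Cxcl5, which are also red.

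Of 46 kept genes on the interferon-induced lists, 9 had a larger late response in MyD88 KO than in TRIF KO by limma's test of the difference, beside 0.11% of all genes. Ifit1, an antiviral protein that binds viral RNA ends, read 8.15, 8.26 and 10.40 in MyD88 KO, 7.37, 7.35 and 8.06 in TRIF KO, against 8.0, 7.69 and 10.40 in wild type. In MyD88 KO it reached the wild-type level at 4 h, and it had hardly moved at 1 h. Its 4 h difference was 2.24 in MyD88 KO, 0.69 in TRIF KO, against 2.39 in wild type, and the late rise in MyD88 KO exceeded that in TRIF KO by 1.49 ± 0.18 (SE; limma, adjusted p = 0.00318).

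Rsad2, the antiviral enzyme viperin, read 9.45, 9.65 and 11.40 in MyD88 KO, 8.97, 9.05 and 9.30 in TRIF KO, against 9.51, 9.20 and 11.07 in wild type. The MyD88 KO array at 4 h was the highest of the 9. Ifit2 read 6.44, 6.79 and 8.62 in MyD88 KO, 5.46, 5.36 and 5.77 in TRIF KO, against 5.85, 5.82 and 7.87 in wild type, so it was highest in MyD88 KO at each time, and in TRIF KO it stayed under log2 6. The late rises of Rsad2 and Ifit2 exceeded those in TRIF KO by 1.57 and 1.64 (limma, adjusted p = 0.00318 and 0.00271). Oasl1, a regulator of the interferon response related to the oligoadenylate synthetases, read 8.52, 8.56 and 9.80 in MyD88 KO, 8.17, 8.16 and 8.16 in TRIF KO, against 8.33, 8.30 and 9.91 in wild type, a difference from TRIF KO of 1.27 (limma, adjusted p = 0.00271).

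Ccl5, a chemokine for T cells and monocytes, was the gene for which MyD88 KO differed from both other genotypes in opposite directions. It read 7.60, 7.71 and 9.63 in MyD88 KO, 7.11, 7.14 and 7.56 in TRIF KO, against 7.68, 7.70 and 11.48 in wild type. All genotypes were flat at 1 h, and at 4 h MyD88 KO lay between the other two. The late rise in MyD88 KO was 1.97 ± 0.11 (SE; limma, adjusted p = 5.51e-07), 1.53 above that in TRIF KO (limma, adjusted p = 0.00113) and 1.82 below that in wild type, a difference of -1.82 (limma, adjusted p = 7.29e-05). Cxcl10, a chemokine for activated T cells, read 6.85, 7.33 and 9.38 in MyD88 KO, 6.93, 7.0 and 7.58 in TRIF KO, against 6.71, 7.30 and 9.75 in wild type. Its late rise was 1.67 above that in TRIF KO, which did not pass the test (limma, adjusted p = 0.0509) and did pass when the wild-type arrays were left out.

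In all, 11 genes rose late more in MyD88 KO than in TRIF KO (0.11% of genes) and 1 less (0.00997%), with 188 at an unadjusted p under 0.05. Beside Ccl5, Ifit1, Ifit2, Rsad2 and Oasl1 they were Gbp2b, Ifit3, Cmpk2, Ifih1, Peli1 and Parp14. Neither for Gbp2b nor for Cxcl5, the 1 gene with a smaller late response, is a test read, as given below. Ifih1, the RNA sensor MDA5, had a 4 h difference of 1.05 in MyD88 KO, 0.10 in TRIF KO, against 1.59 in wild type. Cmpk2, a mitochondrial nucleotide kinase next to Rsad2 in the genome, had 1.12, 0.08 and 1.40, Parp14, an ADP-ribosyltransferase, 1.19, 0.17 and 1.30, and Peli1, a ubiquitin ligase of the TLR pathway, 1.03, 0.00 and 1.19. Ifit3 had 0.99, 0.04 and 0.71, and since a near-identical copy of this gene exists, its signal may hold both. Without the unstimulated MyD88 KO array 6 of the 11 still passed, losing Gbp2b, Ifih1, Ifit3, Parp14 and Peli1, and without its 1 h array 5 passed, losing Cmpk2 as well. Without the wild-type arrays Cmpk2, Parp14 and Peli1 did not pass. None passed when values under log2 6 were raised to 6, and 7 did when the arrays were quantile-normalized again, without Cmpk2, Ifih1, Parp14 and Peli1. Ccl5, Ifit1, Rsad2 and Oasl1 had no value under log2 6, so the floor left their values unchanged.

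Counted by list, 23 kept antiviral effectors had a median 4 h difference of 0.31 in MyD88 KO, -0.02 in TRIF KO, against 0.50 in wild type. Of these, 6 were at least 2-fold higher in MyD88 KO, 0 in TRIF KO, against 7 in wild type, beside 0.429%, 0.409% and 1.23% of all genes. In MyD88 KO 10 rose late, beside 1.37% of all genes, and 22 had a larger difference than in TRIF KO, as did 46.5% of all genes. The list was uneven. Usp18, Oasl2 and Mx1 also rose late, with 4 h differences of 0.73, 0.70 and 0.88 (the first not without the unstimulated and Oasl2 not without either MyD88 KO baseline array), while Oas2, Ifitm3, Oas3 and Isg20 had 0.02, 0.06, -0.10 and -0.07. Over the antiviral, nucleic acid sensor, guanylate-binding protein and interferon-inducible chemokine lists together, 20 of 46 kept genes rose late in MyD88 KO and none fell. Of all genes 1.37% rose late and 0.459% fell. Against wild type, limma's test of the difference called 1 of the 46, Ccl5, beside 0.12% of all genes higher and 0.269% lower. A gene not called is not shown to be equal to wild type. The lists were chosen with results of these arrays known, so these counts describe and do not test them.

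The guanylate-binding proteins and immunity-related GTPases, which attack the vacuoles of intracellular pathogens, had a median difference of 0.85 over 9 kept genes in MyD88 KO, 0.13 in TRIF KO, against 0.58 in wild type. In MyD88 KO 6 of the 9 rose late, beside 1.37% of all genes. Gbp2 read 7.45, 7.79 and 9.01 in MyD88 KO, 7.75, 7.86 and 8.96 in TRIF KO, against 8.0, 7.54 and 10.07 in wild type, so that in both knockouts it ended about 1 log2 unit under wild type. Gbp3, Irgm1 and Gbp6 differed by 0.95, 0.91 and 0.85 in MyD88 KO, against 0.21, 0.13 and 0.04 in TRIF KO. All Gbp6 values in both knockouts were under log2 6, and it passed the filter on low values through the wild-type 4 h array (6.04) alone. With values under log2 6 raised to 6 the median of the list was 0.49.

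Gbp2b behaved unlike the rest. It read 6.99, 7.03 and 8.29 in MyD88 KO, 5.70, 5.62 and 5.89 in TRIF KO, against 5.70, 5.67 and 5.68 in wild type. Only the 3 MyD88 KO arrays were above log2 6, with the unstimulated one already 1.28 above wild type. The late rise was 1.29 ± 0.10 (SE) in MyD88 KO, 1.06 above TRIF KO and 1.30 above wild type. Gbp2b passed the filter on low values through the MyD88 KO arrays alone. The late rise and the differences between genotypes are therefore given as values, and no test is read from them. Members of this family are similar in sequence, and whether its probes read other members was not tested.

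Neither interferon beta itself nor most of its signal transducers stood out. Ifnb1 was under the limit of log2 6 on every array, at 5.46, 5.55 and 5.40 in MyD88 KO, 5.33, 5.52 and 5.56 in TRIF KO, against 5.54, 5.54 and 5.58 in wild type. The 8 kept genes of the interferon receptor and transducer list had a median of 0.09 in MyD88 KO with none past the late test, and among interferon regulatory factors Irf1 had the largest difference, 0.70, and Irf7 had 0.28. Of 16 kept genes of the LPS receptor and adaptor list, Peli1, Ikbke and Tank, which encode a ubiquitin ligase, a relative of TBK1 and a TBK1 scaffold, rose late, with 4 h differences of 1.03, 0.91 and 0.61, Tank not without either MyD88 KO baseline array. Tlr4 was 0.44 lower and did not pass the test.

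**Figure D3:**
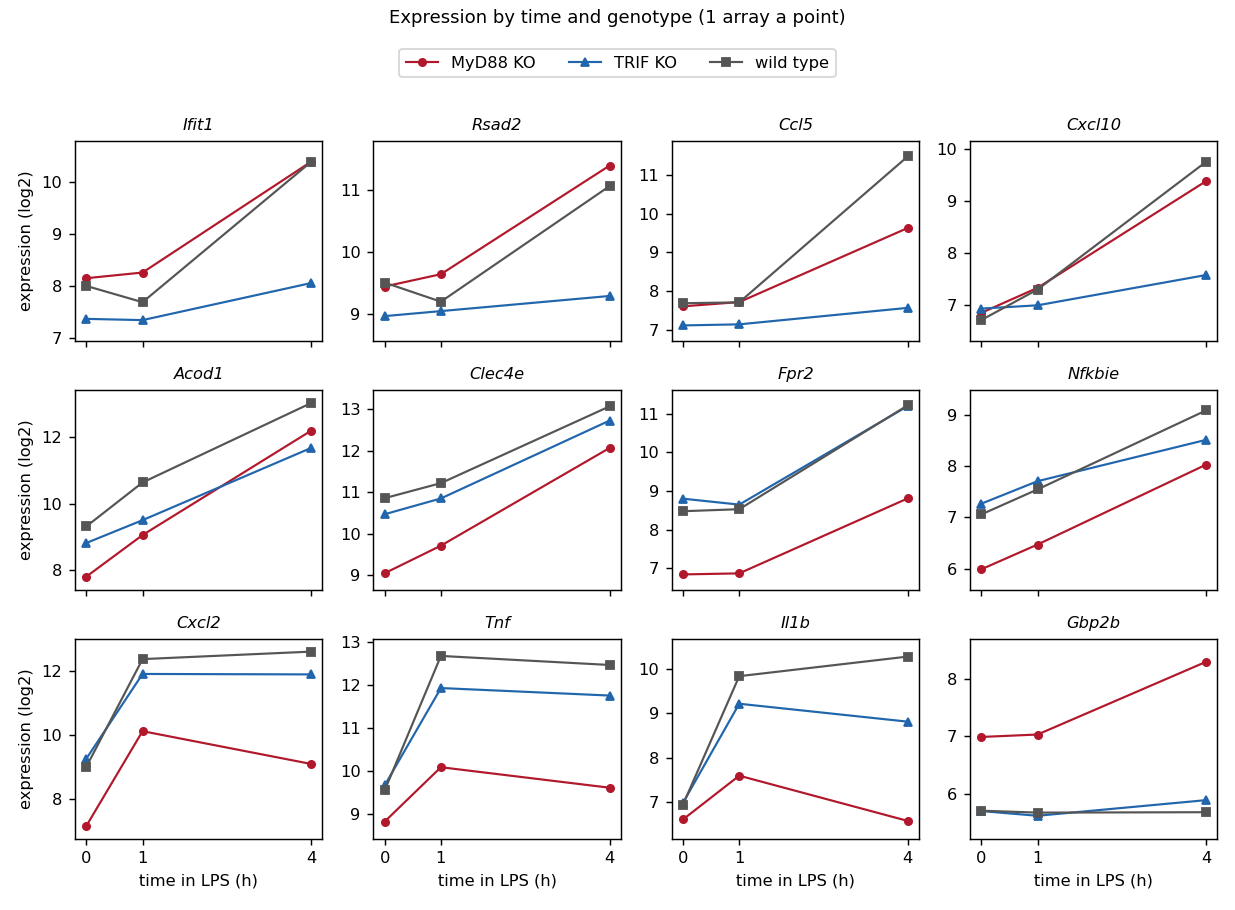
Log2 expression of 12 genes at 0, 1 and 4 h of LPS in MyD88 KO (circles), TRIF KO (triangles) and wild type (squares), with 1 array a point and an axis of its own for each gene. In MyD88 KO the line of Ifit1 and Rsad2 bends upward after 1 h and ends near wild type, while Cxcl2, Tnf and Il1b peak at 1 h and end well below both other genotypes.

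Of 15 kept inflammatory cytokines, 0 were at least 2-fold higher in MyD88 KO at 4 h, beside 0.429% of all genes, 4 in TRIF KO (0.409%), against 6 in wild type (1.23%), and none passed the late test in MyD88 KO. Il6 read 4.20, 3.90 and 3.98 in MyD88 KO, 3.91, 4.29 and 4.32 in TRIF KO, against 3.98, 4.47 and 6.96 in wild type, so it was under log2 6 everywhere but in wild type at 4 h. Il1b read 6.61, 7.60 and 6.58 in MyD88 KO, 6.99, 9.21 and 8.81 in TRIF KO, against 6.95, 9.83 and 10.27 in wild type, and its 4 h level in MyD88 KO was that of the unstimulated cells. Tnf read 8.82, 10.08 and 9.61 in MyD88 KO, 9.66, 11.92 and 11.75 in TRIF KO, against 9.54, 12.67 and 12.46 in wild type. The late response in MyD88 KO minus that in wild type was -2.81 for Il6, which passed the filter on low values through the wild-type 4 h array alone and lost its call with low values raised to 6. It was -1.73 for Il12a (limma, adjusted p = 0.000494), whose MyD88 KO values were also all under log2 6. For Tnf and Il1b, whose 0 h and 1 h arrays differ, the difference from wild type was -1.20 ± 1.37 and -2.40 ± 1.27 (SE) and did not pass (limma, adjusted p = 0.977 and 0.852).

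Over 12 kept chemokines outside the interferon group the median 4 h difference was 0.06 in MyD88 KO, 0.60 in TRIF KO, against 0.79 in wild type. Cxcl2, a neutrophil attractant, was the single member past 2-fold in MyD88 KO, at 7.18, 10.12 and 9.10 in MyD88 KO, 9.27, 11.90 and 11.88 in TRIF KO, against 9.01, 12.36 and 12.59 in wild type. Its close relative Cxcl1 read 5.11, 6.24 and 5.33 in MyD88 KO, 5.33, 8.57 and 8.28 in TRIF KO, against 5.19, 9.17 and 9.44 in wild type. Both were at their highest at 1 h in MyD88 KO. Ccl3 and Ccl4, macrophage chemokines for monocytes and T cells, had 4 h differences of -0.34 and 0.09 in MyD88 KO, against 2.80 and 1.92 in wild type, and the late responses differed by -2.67 and -1.64 (limma, adjusted p = 0.0361 for both). Neither passed without the unstimulated or without the 1 h MyD88 KO array. Cxcl5 was the 1 gene called with a smaller late response than in TRIF KO, at 4.09, 4.03 and 4.02 in MyD88 KO, 4.09, 4.09 and 5.01 in TRIF KO, against 4.11, 4.17 and 6.47 in wild type, a difference of -0.96 from TRIF KO and of -2.37 from wild type. All Cxcl5 values but that of wild type at 4 h lay under log2 6, so no test is read from these differences, and both calls ended with low values raised to 6.

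Against wild type, 12 late responses were higher in MyD88 KO (0.12% of genes) and 27 lower (0.269%), with 625 at an unadjusted p under 0.05. Of the 27, 24 were genes at least 2-fold higher in wild type at 4 h, beside 1.23% of all genes. In MyD88 KO 8 of the 27 still rose late, beside 1.37% of all genes. The 4 h arrays of both genotypes are part of the contrast that chose the 27, so these counts describe and do not test. Cd40, a costimulatory receptor, was one of the 8. It read 7.75, 7.70 and 8.34 in MyD88 KO, 7.79, 7.87 and 8.65 in TRIF KO, against 8.0, 7.99 and 9.88 in wild type. Its 4 h difference was 0.585 in MyD88 KO and 0.859 in TRIF KO, against 1.881 in wild type, so it was smaller in both knockouts. The late response in MyD88 KO minus that in wild type was -1.27 (limma, adjusted p = 0.00115). Icosl, another costimulatory ligand, was at 6.65, 6.52 and 6.76 in MyD88 KO against 6.64, 6.79 and 8.15 in wild type, a difference of -1.26 (limma, adjusted p = 0.00235). The 12 higher ones were, apart from Gbp2b, genes at least 0.5 lower in wild type at 4 h, among them Pparg and Rgs1. The wild-type 4 h array is part of the contrast that chose these 12 too, so this is a description. The counts fell to 1 higher and 8 lower without the unstimulated MyD88 KO array and to 3 and 11 without its 1 h array. With the median of all probe sets of a gene they were 4 and 8, and after a second quantile normalization 4 and 12. Raising values under log2 6 to 6 left 1 higher and 5 lower and ended the calls of Cd40 and Icosl, whose values given here were all above log2 6. The call of Icosl also ended with the median of probe sets. Gbp2b, Il6 and Cxcl5 were the 3 called genes above log2 6 in 1 genotype only, and no test is read from their calls.

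All 11 kept NRF2 targets were above 0 in MyD88 KO at 4 h, beside 37.5% of all genes, and the median difference was 0.56 in MyD88 KO, 0.55 in TRIF KO, against 0.59 in wild type, with 6 late rises in MyD88 KO, beside 1.37% of all genes. Slc7a11, the cystine importer that feeds glutathione synthesis, read 7.56, 7.54 and 8.99 in MyD88 KO, 7.95, 7.96 and 9.81 in TRIF KO, against 8.19, 8.25 and 10.43 in wild type, and its late rise was smaller in MyD88 KO than in wild type, by -0.77 (limma, adjusted p = 0.0435), a call that ended without either MyD88 KO baseline array, without the TRIF KO arrays, with the median of probe sets or with low values raised to 6. Sqstm1, Srxn1, Txnrd1, Gclm and Gclc, which act in selective autophagy and in thioredoxin and glutathione metabolism, had 0.78, 0.70, 0.69, 0.59 and 0.56 and rose late. Without the unstimulated MyD88 KO array Srxn1 passed and the other 4 did not, and without the 1 h array Gclm and Gclc did not. By comparison, Hmox1, at 13.01, 13.02 and 13.44 in MyD88 KO, missed the late test (limma, adjusted p = 0.0527).

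**Figure D4:**
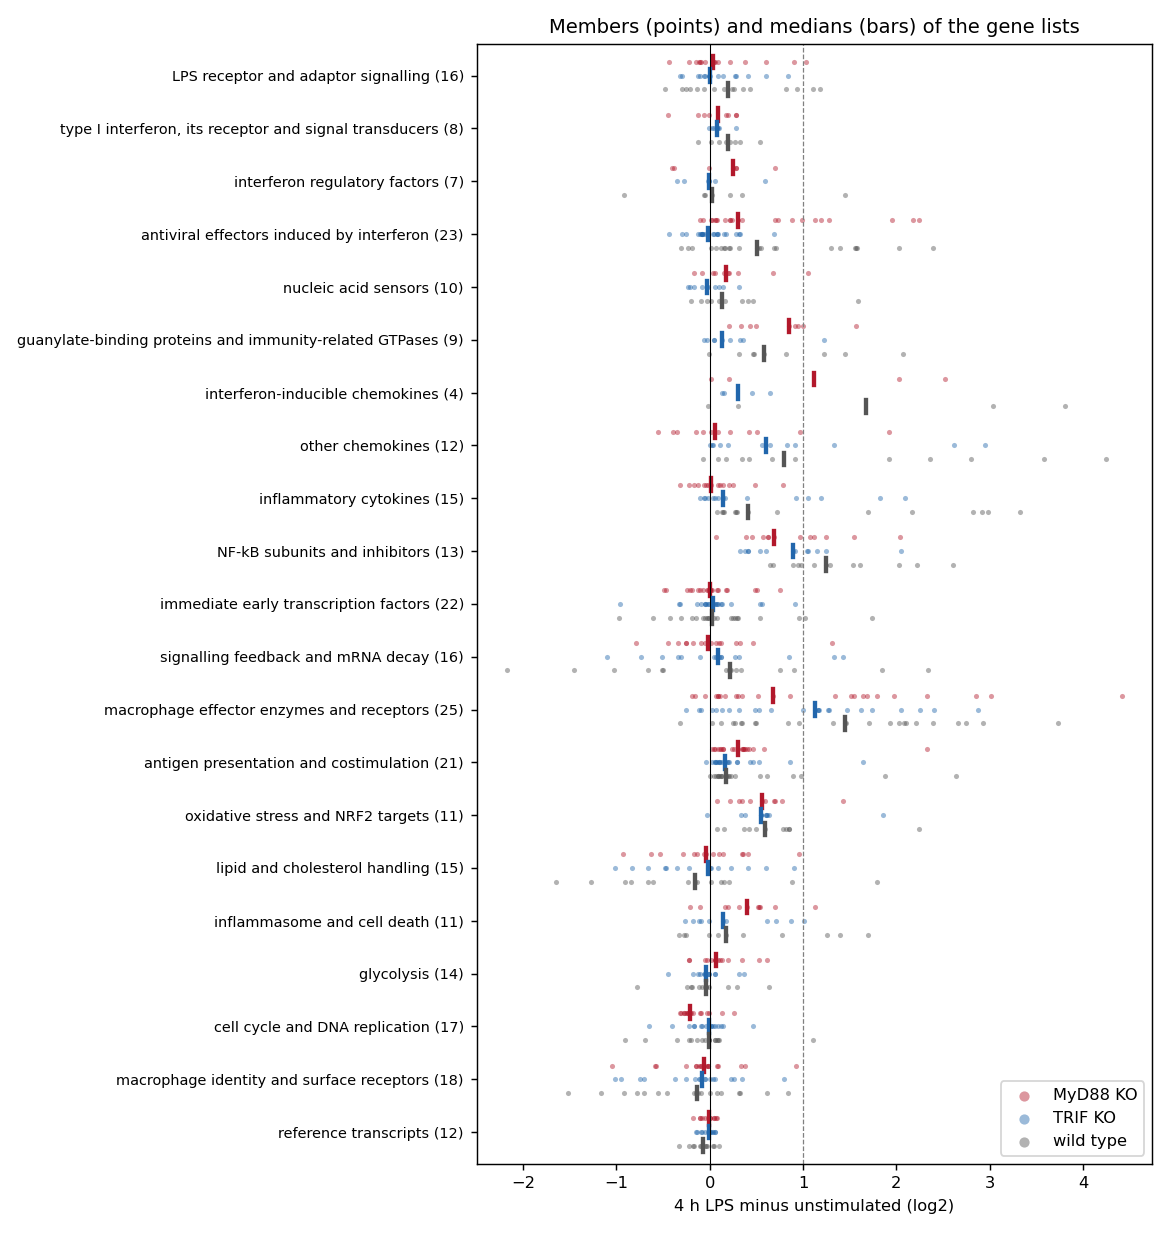
Log2 difference between the 4 h and the unstimulated array for the kept members (points) of 21 gene lists, with the median of each list as a bar, in MyD88 KO (red, top), TRIF KO (blue, middle) and wild type (grey, bottom of each band); the number of members is in brackets. The antiviral, guanylate-binding and interferon-inducible chemokine lists have MyD88 KO medians above those of TRIF KO, and the cytokine, other chemokine, NF-kB and effector lists have them below.

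Costimulation and presentation genes, 21 kept, had a median of 0.30 in MyD88 KO, 0.17 in TRIF KO, against 0.18 in wild type, and 3 rose late: Icam1, Cd40 and Tap1, the peptide transporter of MHC class I. Tap1 did not pass without either MyD88 KO baseline array, nor Cd40 without the 1 h one. The class II genes H2-Ab1, H2-Eb1, H2-Aa and Cd74 had 0.37, 0.35, 0.35 and 0.34 in MyD88 KO and did not pass. Among 11 kept inflammasome and cell death genes Casp4, the sensor of cytosolic LPS, and the death receptor Fas rose late, with 1.13 and 0.70 at 4 h (Fas not without the unstimulated MyD88 KO array), and Nlrp3, with 0.54 in MyD88 KO, 1.01 in TRIF KO, against 1.69 in wild type, did not. Immediate early transcription factors had a median of 0.00 in MyD88 KO over 22 genes, feedback and mRNA decay genes -0.01 over 16, glycolysis genes 0.07 over 14, and 0 of them rose late. Of 15 kept lipid handling genes Abca1, the cholesterol exporter, rose late (0.95 at 4 h, not without the unstimulated MyD88 KO array) and 3 fell, and of 18 kept macrophage identity genes 0 rose late and 3 fell. Of 17 kept cell cycle and replication genes 15 were below 0 in MyD88 KO, beside 62.5% of all genes, with a median of -0.21 beside -0.01 in TRIF KO and in wild type, and none passed. Reference transcripts had a median of -0.01 over 12 genes. Beside these counts, 1.37% of all genes rose late in MyD88 KO and 0.459% fell.

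At the unstimulated state the genes of this response were often lower without MyD88. Of the 43 genes, 21 had an unstimulated MyD88 KO level at least 0.5 below that of wild type, as did 1.4% of all genes. That array also enters the difference that chose the genes, so the count is a description. The 1 h MyD88 KO array, which did not choose them, was at least 0.5 below the wild-type 1 h array for 22 of the 43, beside 0.997% of all genes. Both 1 h arrays had LPS, so the 22 also hold differences in the 1 h response. It was at least 0.5 below the unstimulated wild-type array for 9 (0.578% of all genes), and here the MyD88 KO array alone had LPS. The unstimulated TRIF KO array was at least 0.5 below wild type for 4 (0.459%). At 4 h, 37 of the 43 were below wild type in MyD88 KO, beside 55.4% of all genes, 13 of them by at least 1 (0.558%), and 21 had passed the unstimulated wild-type level by at least 1 (0.389%).

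For 13 of the 43 the 4 h difference in TRIF KO was at least 1 below that in MyD88 KO. They were the only such genes of the 10032 (0.13%). The MyD88 KO difference that chose the 43 is part of this contrast, so the count and medians describe and do not test. The 13 were Acod1, Marcksl1, Cxcl10, Ifit1, Ifit2, Ccl5, Rsad2, Gbp2b, Oasl1, Helz2, Parp14, Cmpk2 and Peli1. Their median difference was 1.95 in MyD88 KO, 0.31 in TRIF KO, against 1.58 in wild type. Their unstimulated MyD88 KO level had a median of 0.14 relative to wild type, with 2 of the 13 at -0.5 or lower. The other 30 had a median 4 h difference of 1.46 in MyD88 KO, 1.17 in TRIF KO, against 1.78 in wild type, and an unstimulated median of -0.61 relative to wild type, with 19 of 30 at -0.5 or lower. The same 0 h array stands in both quantities, so no test was made of this.

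Of the 43 genes, 41 were also at least 2-fold higher in wild type, beside 1.23% of all genes. The 41 are 95.3% of the 43 and 33.3% of the 123 wild-type genes. In all 3 genotypes 23 were at least 2-fold higher, where 0.409% of all genes were so in TRIF KO. Gbp2b and Helz2, a helicase that co-activates nuclear receptors, were past 2-fold in MyD88 KO alone, and Helz2 had 1.23 in MyD88 KO, 0.15 in TRIF KO, against 0.71 in wild type. Just inside the 2-fold limit lay Ifi47, Mapkapk2 and Gca, with 1.00, 1.02 and 1.02, and just outside it Ifit3, Vasp and Ptprj, with 0.99, 0.98 and 0.98. Gca had all of its MyD88 KO values under log2 6, at 4.37, 4.43 and 5.39. For 14 of the 43 genes other probe sets were on the array, 17 of these above log2 6. All 17 were higher at 4 h in MyD88 KO, beside 37.5% of all genes, and 13 at least 2-fold, beside 0.429%. The smallest differences of the 17 were 0.13 for Nfkb2 and 0.19 for Sod2. Of the other probe sets under log2 6, those of Birc3 and Tma16 had -0.15 and -0.1 and that of Gca 0.67.

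At 1 h only 7 genes were at least 2-fold higher in MyD88 KO (0.0698%) and none lower. Of the 43 genes of the 4 h response, Cxcl2 and Acod1 were already past 2-fold at 1 h, 23 differed by less than 0.25 from the unstimulated array in MyD88 KO, and the median 1 h difference was 0.20. Cxcl2 was the 1 gene of the 43 with a higher level at 1 h than at 4 h.

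On the falling side, Ccr2, the receptor that draws monocytes to CCL2, was the single gene at least 2-fold lower, at 7.68, 7.42 and 6.64 in MyD88 KO, 7.56, 7.45 and 6.56 in TRIF KO, against 6.90, 6.92 and 6.2 in wild type. It fell late by 0.92 ± 0.12 (SE; limma, adjusted p = 0.000805), with a 4 h difference of -1.05 in MyD88 KO, -1.01 in TRIF KO, against -0.70 in wild type. In bulk RNA, fewer cells of a type and less RNA per cell cannot be told apart. Hpgd, which breaks down prostaglandins, had -0.93 in MyD88 KO, and Abcd2, a peroxisomal fatty acid transporter, Slc46a3, a lysosomal transporter, and Socs6, a suppressor of receptor signalling, had -0.93, -0.84 and -0.79. These 5 falls passed without either MyD88 KO baseline array, with the median of its probe sets Ccr2 did not pass, and with low values raised to 6 Abcd2 alone of the 5 passed.

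The 46 genes that fell late in MyD88 KO had a median 4 h difference of -0.57 in MyD88 KO, -0.63 in TRIF KO, against -0.93 in wild type, and 45 were below 0 in TRIF KO (55.1% of all genes), against 45 in wild type (47.8%). Among them were Mertk, a receptor for the uptake of dying cells (-0.57), Fcgr1, the high-affinity IgG receptor (-0.59), Pparg, a nuclear receptor of lipid metabolism (-0.53), Cnr2, the peripheral cannabinoid receptor (-0.55), and Hpgds, a prostaglandin D2 synthase (-0.74). Without the unstimulated or without the 1 h MyD88 KO array at least 1 of the 2 fits no longer called each of these 5. Ccl7, a monocyte chemokine, read 7.42, 7.27 and 6.87 in MyD88 KO, 6.82, 6.82 and 6.85 in TRIF KO, against 6.49, 6.58 and 6.84 in wild type. It began highest in MyD88 KO, and the genotypes ended close together. It fell late in MyD88 KO by 0.48 (limma, adjusted p = 0.0443), with 4 h differences of -0.55, 0.04 in TRIF KO, against 0.34 in wild type. The call ended without either MyD88 KO baseline array and without the TRIF KO arrays. It also ended after centring, after a second quantile normalization and with low values raised to 6. The count of late falls was 11 without the unstimulated MyD88 KO array and 10 without its 1 h array, and 30 after centring on the reference transcripts.

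All 46 genes at least 2-fold lower in wild type at 4 h were below 0 in MyD88 KO too, beside 62.5% of all genes, with a median of -0.49 there against -1.18 in wild type, where they were chosen, and 23 of them were at -0.5 or lower in MyD88 KO (0.568% of all genes) and 41 in TRIF KO (1.05%). Pparg read 8.92, 8.95 and 8.39 in MyD88 KO, 9.0, 8.89 and 8.17 in TRIF KO, against 9.05, 8.81 and 7.40 in wild type. Its late fall was smaller in MyD88 KO than in wild type, a difference of 0.98 (limma, adjusted p = 0.0324). Rgs1, a brake on G protein signalling, read 11.42, 11.49 and 11.09 in MyD88 KO, 11.43, 11.37 and 10.92 in TRIF KO, against 11.36, 11.37 and 9.91 in wild type, a difference from wild type of 1.09 (limma, adjusted p = 0.00476). For Cxcr4, the receptor for CXCL12, the difference was 1.03 (limma, adjusted p = 0.0492). Leaving out the unstimulated MyD88 KO array ended the calls of Pparg, Rgs1 and Cxcr4 against wild type, and leaving out the 1 h array that of Pparg.

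**Figure D5:**
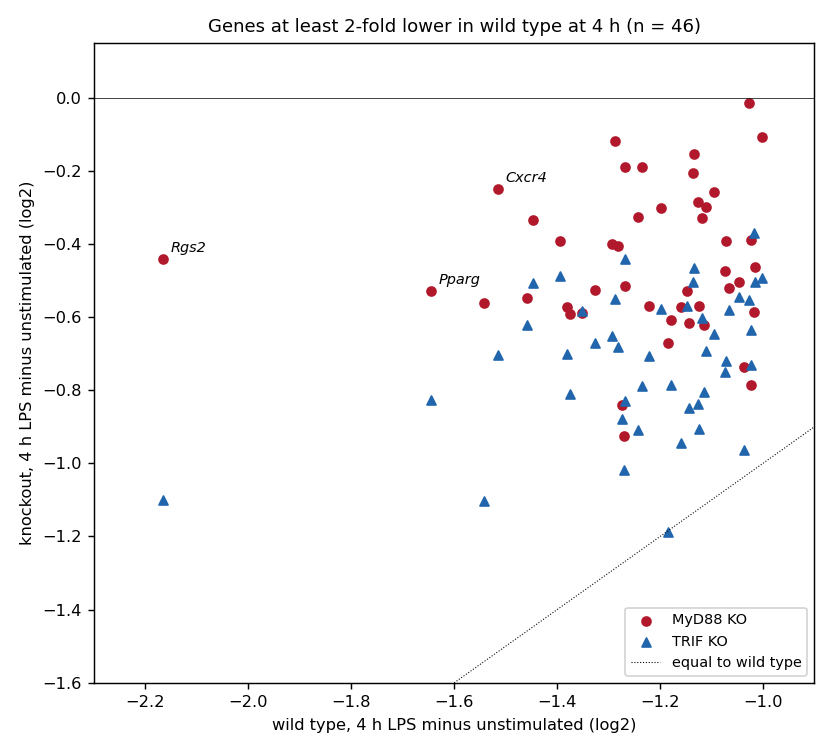
The 46 genes at least 2-fold lower in wild type at 4 h, with the wild-type log2 difference on the x axis and the difference in MyD88 KO (circles) and TRIF KO (triangles) on the y axis, 1 pair of arrays a point. All circles lie below 0 and above the dotted line of equality, and for Cxcr4, Rgs2 and Pparg the circle lies above the triangle.

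Promoter entries were found for 38 of the 43 genes, 52 promoters in all because some genes have several starts, each of 250 bases before and 50 after the start. An ISRE core was present in 11.5% of them, beside 3.2% of the 10338 promoters of all kept genes with an entry. Among the 12 promoters of the 13 genes with a lower difference in TRIF KO the share was 33.3%, and among the 40 promoters of the other 30 genes it was 5.0%. The NF-kB motif, which is short and degenerate, was in 53.8% of the 52 promoters beside 41.8% of all, and the AP-1 motif in 11.5% beside 4.4%. Both were also in a larger share of the 12 promoters than of the 40, with 8 of 12 and 20 of 40 for NF-kB and 2 of 12 and 4 of 40 for AP-1, and none of these shares was tested. Of the promoters shown above, those of Ifit1, Rsad2, Cxcl10, Gbp2b and Acod1 belong to the genes with the lower TRIF KO difference, Acod1 without an ISRE core, and those of Gbp2, with a core, and Nfkbie do not. A match is a description of letters, and Oasl1, Ifit2, Ifih1, Peli1 and Cmpk2 had no ISRE core in the upstream window while Ccl5 and Relb have no entry in the table.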

How the data were processed

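Each of the 9 RNA samples, 1 per genotype and time, was made into biotinylated cRNA for 1 array. The authors deposited log2 expression values for 22690 probe sets, computed by RMA (background correction, quantile normalization and probe summary) according to the submitters' processing notes. The sources used here state neither the RMA version nor whether the arrays were normalized as 1 set. Array medians lay between 7.01 and 7.07, and with 1 array a group the precision is limited by their number. Of the probe sets, 20393 had 1 gene symbol, 691 several and 1606 were not listed in the platform annotation; 20364 matched a RefSeq gene table, and those with several or none name no gene.

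From these values, differences between arrays were taken, and limma 3.58.1 (lmFit, eBayes; R 4.3.3) was fitted over 10032 genes, with 3 residual and 10.27 prior degrees of freedom, two-sided and with Benjamini-Hochberg adjustment at 0.05. On simulated data the late fit in MyD88 KO recovered 75% of 100 genes changed by 0.5 and 100% of 100 genes changed by 1 (log2), with 15 false calls. The difference from wild type recovered 26% and 99% of them, with 11 false calls, and that from TRIF KO 22% and 100%, with 9. The simulated arrays held no response at 1 h, unlike the measured ones. Alternatives covered the probe set, the low-value filter and floor, centring, quantile normalization, the baseline array, the variance trend and the arrays in the fit.

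Named genes were the 25 largest and 15 smallest 4 h differences in MyD88 KO, up to 6 members of a list, the 12 most different from each other genotype in each direction, the 15 smallest late p in each direction, and 3 genes on each side of the 2-fold limit; genes singled out beyond that were chosen after their values were seen. The genes, gene lists and tests were chosen with earlier results of these data known.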

Additional observations from a re-analysis of the deposited data

Results flagged for a closer look

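In 12 genes the late response differed between MyD88 KO and TRIF KO by limma's test of the difference itself, on the log2 scale and as MyD88 KO minus TRIF KO. It was higher in MyD88 KO by 1.64 for Ifit2, 1.57 for Rsad2, 1.53 for Ccl5, 1.49 for Ifit1, 1.27 for Oasl1, 1.09 for Cmpk2, 1.06 for Gbp2b, 1.04 for Ifit3, 0.96 for Peli1, 0.95 for Parp14 and 0.91 for Ifih1, and the difference was -0.96 for Cxcl5. Each group had 1 array at 4 h. Gbp2b and Cxcl5 were above log2 6 in 1 genotype only, MyD88 KO and wild type in that order, and so was Il6 below, in wild type. No test is read from the calls of these genes.

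Of the genes named by rule, the late response differed between MyD88 KO and wild type in 15. As MyD88 KO minus wild type it was 1.30 for Gbp2b, 1.09 for Rgs1, 1.03 for Cxcr4, 0.99 for N4bp2l1 and 0.98 for Pparg. It was -2.81 for Il6, -2.67 for Ccl3, -2.37 for Cxcl5, -1.82 for Ccl5, -1.73 for Il12a, -1.64 for Ccl4, -1.27 for Cd40, -1.26 for Icosl, -0.84 for Sh3bp5 and -0.77 for Slc7a11. Ccl5, Cxcl5 and Gbp2b were called against both genotypes, and for Cxcl5 and Gbp2b no test is read from the calls. Without the unstimulated MyD88 KO array N4bp2l1 and Sh3bp5 no longer passed against wild type, nor did they without the 1 h array.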

How the results depend on the processing

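No paired analysis was possible because each group has 1 array. The 43 genes at least 2-fold higher became 33 to 47 under the 8 alternatives, and 29 of them were also past 2-fold against the 1 h array, where 33 were; there 4 genes were 4-fold higher and 4 were 2-fold lower, and with the median of probe sets 0 were 2-fold lower. Of the list medians, 3 moved by at least 0.21, the SD over genes of the difference between the unstimulated MyD88 KO and wild-type arrays: guanylate-binding proteins and GTPases to 0.49 with low values raised to 6, interferon-inducible chemokines to 0.11 without a filter and 2.03 with a maximum of at least 7, and effector genes to 0.45 with the median of probe sets, where interferon regulatory factors stood at 0.08 instead of 0.25 and nucleic acid sensors at 0.07 instead of 0.18. Late rises and falls in MyD88 KO numbered 27 and 4 with low values raised and 75 and 11 without its 0 h array. The falls were 30 after centring and 10 without its 1 h array. The additive fit called 463 genes higher and 715 lower. Those calls are for a 4 h effect against 0 h shared by all genotypes, which is not the late response of MyD88 KO. Against TRIF KO, late responses higher in MyD88 KO numbered 0 with low values raised, 7 after quantile normalization, 6 without the 0 h and 5 without the 1 h array; the 1 lower became 0 with low values raised, without the 0 h array, without the 1 h array, with a maximum of at least 7 and with a trend. Against wild type, higher and lower numbered 4 and 8 with the median of probe sets, 1 and 5 with low values raised, 4 and 12 after quantile normalization, 1 and 8 without the 0 h array and 3 and 11 without the 1 h array; higher were 5 after centring and 7 without the TRIF KO arrays. The fits without a MyD88 KO baseline array, or without the genotype not compared, were chosen after seeing the data, and the causes were not tested. No direction of a called gene reversed.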

Other observations

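Beyond the single-gene probe sets, 1433 kept probe sets matched several genes or none in the annotation, and 7 of these were at least 2-fold higher in MyD88 KO at 4 h (0.488%). One shared by Ass1, the enzyme that makes argininosuccinate, and Gm5424 read 6.99, 7.17 and 9.0 in MyD88 KO at 0, 1 and 4 h, 7.53, 7.46 and 9.13 in TRIF KO, against 8.15, 7.88 and 9.38 in wild type. One shared by Isg15, the ubiquitin-like interferon-induced modifier, and Gm9706 read 7.37, 7.51 and 8.44 in MyD88 KO, 6.78, 7.03 and 7.09 in TRIF KO, against 7.49, 7.42 and 8.90 in wild type. The Ass1 probe set was at least 2-fold higher at 4 h in all genotypes, and the 4 h difference of the Isg15 one was 0.31 in TRIF KO. Of 3 probe sets shared within the Ifi200 family of interferon-induced DNA-binding proteins, 1 matched Ifi211 and Ifi205, 1 these with Mndal and Ifi204, and 1 Ifi203 with related loci. Their 4 h differences were 1.59, 1.47 and 1.09 in MyD88 KO, 0.82, 0.78 and 0.59 in TRIF KO, against 1.58, 1.24 and 1.16 in wild type.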
